A study of Rattus norvegicus with 18 samples.

Results

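The genes described here are those of the Trem2 pathway and of activated microglia: Trem2, Tyrobp, Apoe, Clec7a, Cd68, Gpnmb, Cst7, Spp1, Lgals3 and Itgax. They were taken by symbol from the deposited table of gene counts, in which 9 of the 10 had a row among 17455 symbols. The level of Itgax was not analysed here, and only its promoter was searched. Each of the 9 passed the filter on low counts that left 13338 genes for testing. Hippocampi came from Sprague-Dawley rats, adult and male, in the seizure and sham groups of 2 models of temporal lobe epilepsy. In the first model (KA), electrodes were implanted and repeated systemic doses of kainic acid brought on status epilepticus. In the second model (KI), the hippocampus was kindled electrically through implanted electrodes. The KA model had 7 sham and 3 seizure libraries (KA 3 Class V), and the KI model had 4 of each kind. The label 3 Class V names the seizure group and is not explained further in the sources used here, nor is what the sham rats received. The left hippocampus, taken 24 h after the last seizure, gave the RNA. The labels do not state that every library came from a different rat, so the p-values measure the spread between these libraries.

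Trem2 is a surface receptor of microglia, the resident macrophages of the brain, and binds lipids, lipoproteins and damaged membrane. It has no signalling tail of its own and passes its signal through the adaptor Tyrobp (also called DAP12), which recruits the kinase Syk. In mouse models of neurodegeneration, microglia that depend on this receptor take up a state in which lysosomal, lipid and adhesion genes such as Cd68, Gpnmb, Cst7, Spp1, Clec7a and Lgals3 are high, while surveillance genes such as P2ry12 and Tmem119 are lower. Apoe is a lipid carrier and a ligand of Trem2 that astrocytes make in large amounts and activated microglia also make.

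The libraries held 30925368 to 49943021 counts, so that levels are given as CPM, the counts of a gene divided by the scaled library total and put on a common total. Several libraries stood apart. Genes that resemble ribosomal RNA took 16.4% of the counts in KI sham 2, 16.3% in KI 3 Class V 1 and 9.67% in KA sham 4, against 0.571% to 2.0% elsewhere. Ttr, a choroid plexus gene, reached 887 CPM in KI sham 4, with KA sham 3 next (572 CPM). KI sham 3 held the highest summed levels of blood monocyte and neutrophil markers (156 CPM) and of dendritic and T cell markers (66.9 CPM), with Cd8a, a T cell coreceptor, at 38.2 CPM. Summed blood cell genes were highest in KA sham 2 (7876 CPM) and KI sham 1 (4031 CPM), against at most 2444 CPM elsewhere, and summed meningeal and fibroblast markers in KI sham 4 (682 CPM). KA sham 2 also held the most Tyrobp, Clec7a, Cst7 and Apoe of the KA shams, and KI sham 1 the most Apoe of the 18 libraries. Summed border macrophage markers were at 42.9 and 46.8 CPM in KI sham 3 and 4, against 15.6 and 19.9 CPM in KI sham 1 and 2. Because KI sham 3 and 4 also carried the highest levels of several of the genes described here, the KI values are given with and without them. No listed cell type marker was at 0 in every library, and the defining microglia markers Aif1, Csf1r, Cx3cr1, P2ry12 and Tmem119 were read in each library.

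In the KI model, transcripts of the receptor and its adaptor were lower in every 3 Class V library than in every sham. Trem2 was at 33.9, 49.0, 30.3 and 63.1 CPM in KI sham 1 to 4. It was at 13.1, 13.2, 13.7 and 11.3 CPM in KI 3 Class V 1 to 4. The 4 seizure libraries lay within a narrow band below the lowest sham, and the group means were 44.1 ± 15.1 CPM (SD, n = 4) and 12.8 ± 1.06 CPM (SD, n = 4). Trem2 fell by 1.78 ± 0.39 (SE) on the log2 scale, a 3.44-fold lower level (edgeR adjusted p = 0.0267). Tyrobp was at 39.9, 49.1, 85.2 and 55.5 CPM in the KI shams and at 14.7, 15.2, 14.6 and 14.4 CPM in the KI 3 Class V libraries. These groups did not overlap either, and the adaptor was almost level across the 4 seizure libraries. Tyrobp fell by 1.97 ± 0.45 on the log2 scale (3.90-fold lower, edgeR adjusted p = 0.0282).

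Apoe, by far the most abundant of the 9, was at 10568, 8742, 8574 and 6842 CPM in the KI shams and at 4189, 3977, 4486 and 5135 CPM in the KI 3 Class V libraries. Its groups were separate, with KI 3 Class V 4 highest among the seizure libraries and KI sham 4 lowest among the shams. Apoe fell by 0.97 ± 0.18 on the log2 scale (1.95-fold lower, edgeR adjusted p = 0.0210). Summed astrocyte markers overlapped between these groups, at 5070 to 7426 CPM in the shams and 6093 to 6388 CPM in the seizure libraries. In bulk tissue, fewer cells of a type and less RNA per cell cannot be told apart for any of these genes.

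The surface, lysosomal and secreted genes were also lower on average in KI 3 Class V, but their shams spread widely. Spp1, which encodes the secreted phosphoprotein osteopontin, was at 3.46, 46.3, 373 and 249 CPM in KI sham 1 to 4 and at 10.3, 10.7, 11.5 and 7.11 CPM in KI 3 Class V 1 to 4. KI sham 1 was thus below each seizure library, and KI sham 3 and 4 were far above the rest. Spp1 fell by 4.08 ± 1.04 on the log2 scale (edgeR adjusted p = 0.0329).

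Gpnmb, a glycoprotein of lysosomal membranes, was at 25.7, 70.9, 151 and 312 CPM in the KI shams and at 39.9, 41.7, 40.0 and 34.6 CPM in the seizure libraries. It fell by 1.84 ± 0.55 on the log2 scale (edgeR adjusted p = 0.0449). Cd68, a lysosomal sialomucin of phagocytes, was at 5.46, 14.8, 28.9 and 65.0 CPM in the shams and at 5.23, 6.01, 5.12 and 3.21 CPM in the seizure libraries. Both genes shared the same order of shams, lowest in KI sham 1 and highest in KI sham 4, and both groups overlapped through KI sham 1. Cd68 fell by 2.55 ± 0.66 on the log2 scale (edgeR adjusted p = 0.0333).

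Clec7a, the receptor for fungal beta-glucans (dectin-1), was at 0.934, 2.77, 26.2 and 13.6 CPM in the KI shams and at 1.07, 1.53, 1.46 and 0.803 CPM in the seizure libraries. It fell by 3.17 ± 0.87 on the log2 scale (edgeR adjusted p = 0.0381). Lgals3, which encodes galectin-3, a galactoside-binding lectin, was at 7.61, 13.4, 47.0 and 48.4 CPM in the shams and at 8.44, 7.36, 8.11 and 6.26 CPM in the seizure libraries. The shams of these genes overlapped the seizure libraries at the low end, again through KI sham 1. Lgals3 fell by 1.95 ± 0.60 on the log2 scale (edgeR adjusted p = 0.0488).

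Cst7, which encodes cystatin F, an inhibitor of lysosomal cysteine proteases, was near the limit of detection, with 2 to 50 counts in a library. It was at 0.138 to 1.23 CPM in the KI shams and at 0.0472 to 0.125 CPM in the KI 3 Class V libraries. Although these ranges did not overlap, the log2 difference of -2.61 ± 0.99 did not pass the test (edgeR adjusted p = 0.0797).

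**Figure D1:**
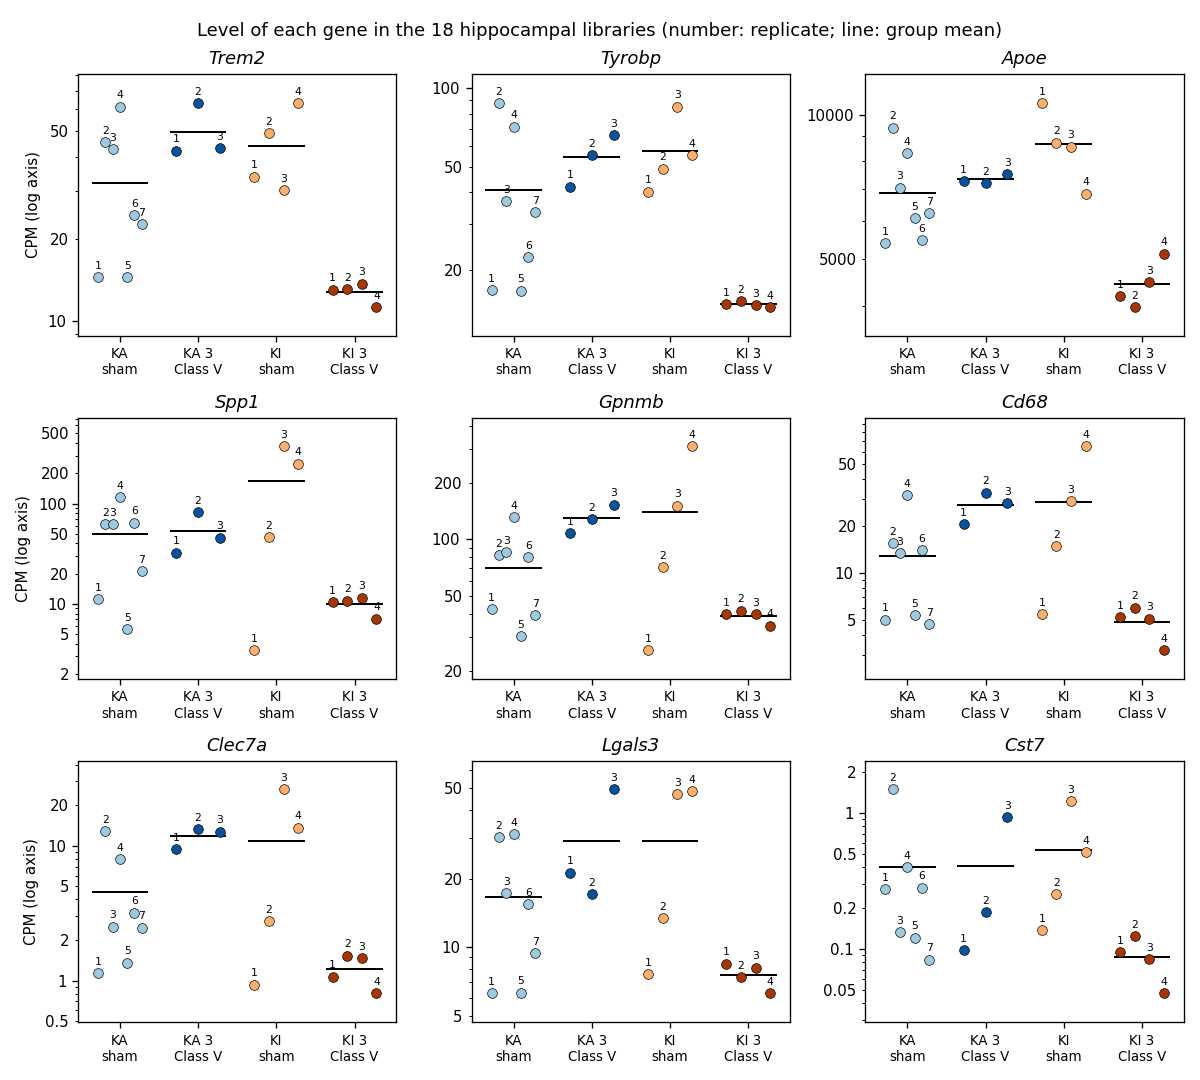
Level of each of the 9 genes in each of the 18 libraries, in CPM on a log axis, by group, with each point 1 library and each bar the group mean. The 4 KI 3 Class V libraries sit close together at the low end in each panel (11.3 to 13.7 CPM for Trem2), while the KI shams of Spp1 run from 3.46 to 373 CPM.

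Of the 9 genes, 8 were called lower in KI 3 Class V and none higher, with a median log2 difference of -1.97. Over all tested genes, 5.25% were called lower and 4.74% higher in this comparison, and the median was -0.04. The groups did not overlap for 4 of the 9, namely Trem2, Tyrobp, Apoe and Cst7, against 8.07% of all tested genes. KI 3 Class V had the lowest mean of the 4 groups for each of the 9.

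KI sham 3 and 4 were then left out together, a fit in which 13.3% of all genes were called lower. Trem2 differed by -1.72 on the log2 scale (edgeR adjusted p = 0.0164), Tyrobp by -1.62 (edgeR adjusted p = 0.0344) and Apoe by -1.14 (edgeR adjusted p = 0.00652). Those 3 of the 9 remained called. KI sham 3 and 4 were left out in part because of their high levels of these genes. They were the highest KI shams for the other 5 called genes and for Tyrobp, so smaller differences for those genes were fixed by the choice. Those 5 calls were lost: Spp1 was at -1.35 (edgeR adjusted p = 0.274), Cd68 at -1.08 (edgeR adjusted p = 0.199), Clec7a at -0.64 (edgeR adjusted p = 0.570), Lgals3 at -0.50 (edgeR adjusted p = 0.541) and Gpnmb at -0.33 (edgeR adjusted p = 0.613). The part that the monocyte, T cell, border macrophage and choroid plexus markers of KI sham 3 and 4 have in these values was not tested.

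**Figure D2:**
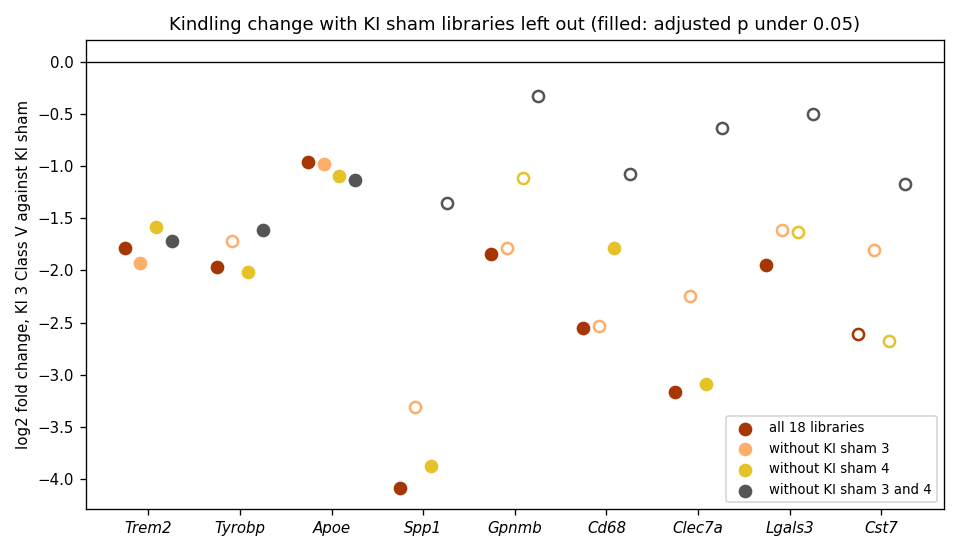
Log2 difference of KI 3 Class V against KI sham for each gene, from the fit with every library and from fits with KI sham 3, KI sham 4 or both left out, with filled points called at an edgeR adjusted p under 0.05. With both left out Trem2, Tyrobp and Apoe are still called (-1.72, -1.62 and -1.14), while Gpnmb moves from -1.84 to -0.33.

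Single libraries decided several KI calls. Without KI sham 3, where 0.631% of all genes were called lower, Trem2 and Apoe remained called (edgeR adjusted p = 0.0431 and 0.0420), and the other 6 calls were lost, with Tyrobp at an edgeR adjusted p of 0.0666. Without KI sham 4, where 17.6% of all genes were called lower, Gpnmb was at -1.12 (edgeR adjusted p = 0.0822) and Lgals3 at -1.63 (edgeR adjusted p = 0.0546), and the other 6 remained called. Without KI 3 Class V 1, 2 or 3, none of the 9 was called (edgeR adjusted p from 0.0541 to 0.159), in fits that each called 9 genes in all, while their log2 differences stayed close to those over all libraries (Trem2 at -1.79, -1.81 and -1.83). Without KI 3 Class V 4, where 2% of all genes were called lower, Trem2, Tyrobp and Apoe remained called. With the 3 libraries rich in ribosomal RNA left out, none of the 9 was called (edgeR adjusted p from 0.0713 to 0.205), and 17 genes were called in all. The log2 differences there were -1.74 for Trem2, -2.04 for Tyrobp, -0.94 for Apoe, -4.42 for Spp1 and -2.80 for Cd68. Gpnmb and Lgals3, the calls nearest to the threshold, were also lost without KI sham 2, KA sham 3, KA 3 Class V 1 or KA 3 Class V 2, Lgals3 without KA sham 7 and Gpnmb without KA 3 Class V 3. Fitted on the KI groups alone, Trem2, Tyrobp and Apoe were called, where 2.91% of all genes were called lower.

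The level of ribosomal protein genes also moved with the KI groups. Their score over 88 genes was 0.69, 0.24, 0.42 and -0.34 in KI sham 1 to 4 and -0.49, -0.39, -0.45 and -0.19 in KI 3 Class V 1 to 4. With this score as a covariate, Apoe alone was called, at -0.63 (edgeR adjusted p = 0.0274), where 0.495% of all genes were called lower. The calls that were lost stood at -1.61 for Trem2, -1.31 for Tyrobp, -3.99 for Spp1, -1.97 for Gpnmb, -2.63 for Cd68, -2.55 for Clec7a and -1.73 for Lgals3.

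In the KA model none of the 9 genes was called, and none had an unadjusted p under 0.05. The values lay on the higher side in KA 3 Class V for each gene, with a median log2 difference of 0.62 against a median of -0.01 over all genes. Of all tested genes, 0.172% were called in this comparison and 9.93% had an unadjusted p under 0.05. DESeq2 called none of the 9 either, and limma-voom with quality weights called Cd68 and Clec7a, in a fit that called 3.57% of all genes higher.

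Trem2 was at 14.5 to 61.3 CPM (median 24.5, n = 7) in the KA shams and at 42.3, 63.2 and 43.0 CPM in KA 3 Class V 1 to 3. The seizure libraries lay in the upper part of the sham range, and the log2 difference was 0.62 ± 0.36 (edgeR adjusted p = 0.607). Tyrobp was at 16.6 to 87.9 CPM (median 33.3) in the shams and at 41.8, 55.3 and 66.0 CPM in the seizure libraries, a log2 difference of 0.42 ± 0.42 (edgeR adjusted p = 0.782). Apoe was at 5396 to 9393 CPM (median 6229) in the shams and at 7277, 7205 and 7518 CPM in the seizure libraries. The 3 seizure libraries were close together for Apoe, inside the range of the shams, and the log2 difference was 0.10 ± 0.17 (edgeR adjusted p = 0.893).

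Clec7a had the largest KA difference of the 9, at 1.40 ± 0.73 on the log2 scale (edgeR adjusted p = 0.560). It was at 1.13 to 12.9 CPM (median 2.51) in the shams and at 9.40, 13.2 and 12.7 CPM in the seizure libraries. Cd68 was at 4.70 to 31.7 CPM (median 13.4) in the shams and at 20.6, 32.8 and 28.0 CPM in the seizure libraries, a log2 difference of 1.08 ± 0.58 (edgeR adjusted p = 0.57). For both genes the 3 seizure libraries were above the sham median and overlapped the sham range.

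Gpnmb was at 30.5 to 130 CPM (median 79.9) in the KA shams and at 108, 127 and 153 CPM in the seizure libraries, a log2 difference of 0.89 ± 0.50 (edgeR adjusted p = 0.593). Lgals3 was at 6.27 to 31.3 CPM (median 15.4) in the shams and at 21.3, 17.1 and 49.3 CPM in the seizure libraries, a log2 difference of 0.82 ± 0.55 (edgeR adjusted p = 0.649). KA 3 Class V 3 was the highest of the 3 for both of these genes. Spp1, at 5.63 to 116 CPM (median 62.4) in the shams and 32.3, 82.0 and 45.8 CPM in the seizure libraries, had a log2 difference of 0.12 ± 0.89 (edgeR adjusted p = 0.982). Cst7 differed by 0.04 ± 0.81 on the log2 scale (edgeR adjusted p = 0.995). Groups overlapped for each of the 9, whereas 2.95% of all tested genes had every KA 3 Class V library above every sham.

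The difference between the models was tested by taking the KI change from the KA change. Of the 9 genes, 6 were called, each with the higher value in KA. Over all tested genes, 3.15% were called in that direction. The receptor and adaptor differed by 2.40 ± 0.53 (Trem2, edgeR adjusted p = 0.0216) and 2.39 ± 0.61 (Tyrobp, edgeR adjusted p = 0.0375) on the log2 scale. Apoe differed by 1.06 ± 0.24 (edgeR adjusted p = 0.0236). Clec7a differed by 4.56 ± 1.13 (edgeR adjusted p = 0.0335), Cd68 by 3.63 ± 0.87 (edgeR adjusted p = 0.0294) and Gpnmb by 2.73 ± 0.73 (edgeR adjusted p = 0.0462). Spp1 (4.20 ± 1.29, edgeR adjusted p = 0.0788), Lgals3 (2.77 ± 0.80, edgeR adjusted p = 0.0639) and Cst7 (2.65 ± 1.28, edgeR adjusted p = 0.250) did not pass.

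With KI sham 3 and 4 left out, Trem2 and Apoe were still called as different between the models and the other 4 were not. In that fit 1.89% of all genes were called with the higher value in KA. None was called without KA 3 Class V 2, KA 3 Class V 3, KI 3 Class V 1 or KI 3 Class V 3. Those fits called 1.05%, 0.387%, 0.893% and 0.907% of all genes in that direction. Trem2 alone was called without KI sham 3 or KI 3 Class V 2 (1.26% and 1.3% of all genes). Trem2 and Apoe were the calls left without KI 3 Class V 4 (1.66% of all genes). Trem2, Cd68 and Apoe were those left without KA sham 3, 6 or 7 (2.24%, 2.15% and 2.15% of all genes). Gpnmb was also lost without KA sham 1, KA sham 5, KA 3 Class V 1 or KI sham 4.

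**Figure D3:**
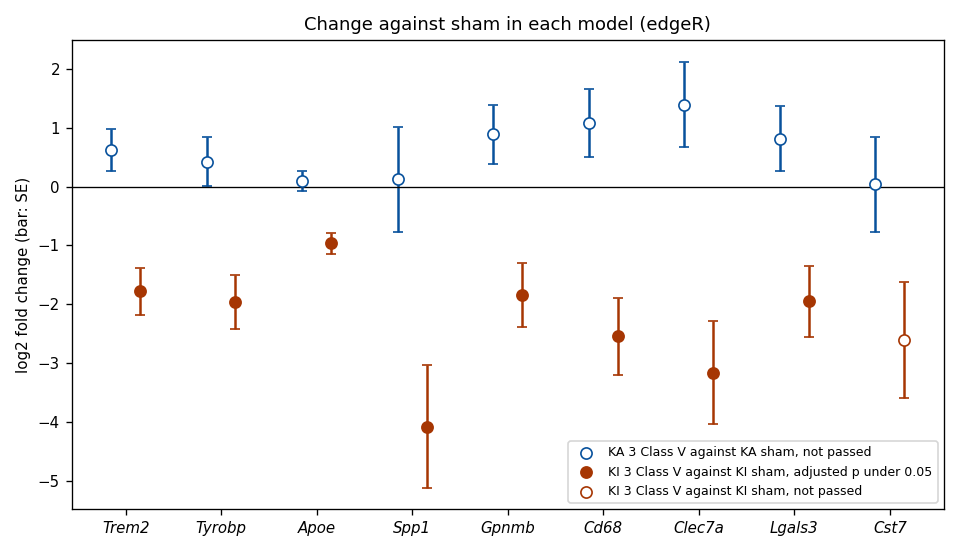
Log2 difference of 3 Class V against sham for each gene in the KA and the KI model, with bars of 1 SE and filled points called at an edgeR adjusted p under 0.05. The KA values run from 0.04 to 1.40 with none called, and the KI values from -0.97 to -4.08 with 8 of 9 called.

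The shams of the models were also compared. No gene of the 9 was called between KA sham and KI sham, where 0.00750% of all tested genes (1 gene) were called. Each of the 9 had a negative value, KA sham against KI sham, with a median log2 difference of -0.81 and edgeR adjusted p from 0.564 to 0.815. An unadjusted p under 0.05 was reached by 4 of them, Spp1 (-1.77), Cd68 (-1.16), Gpnmb (-1.0) and Apoe (-0.34), against 8.63% of all tested genes. DESeq2 and limma-voom called none of the 9 between the shams. Without KI sham 3 and 4, the sign turned for Spp1 (0.96), Gpnmb (0.51), Cd68 (0.31), Clec7a (1.24), Cst7 (0.93) and Lgals3 (0.64). The KA shams were themselves uneven: KA sham 1 and 5 held 14.6 and 14.5 CPM of Trem2, next to the 11.3 to 13.7 CPM of KI 3 Class V.

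The summed level of homeostatic microglia markers was set beside the 9 genes. The sum of 13 such markers was 568, 938, 1089 and 1103 CPM in KI sham 1 to 4 and 559, 575, 547 and 591 CPM in KI 3 Class V 1 to 4. It was 565 to 1115 CPM (median 745) in the KA shams and 1043, 1397 and 1168 CPM in KA 3 Class V. By this sum the KI seizure libraries were close to KI sham 1 and overlapped the shams, and the KA seizure libraries were in or above the upper part of the KA sham range. Single markers did not follow the sum throughout, and in KI sham 1 they departed in both directions. Tmem119 was at 55.4 CPM and Aif1 at 44.99 CPM in KI sham 1, against 29.9 to 39.1 CPM and 17.3 to 21.8 CPM in KI 3 Class V. The other defining markers, Cx3cr1, P2ry12 and Csf1r, were lower in KI sham 1 than in each KI 3 Class V library. Cx3cr1 was at 11.9 CPM against 28.28 to 34.05 CPM, and Csf1r at 142 CPM against 151 to 155 CPM. P2ry12 was at 16.6 CPM in KI sham 1.

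Set against this sum, Trem2 was at 5.97, 5.23, 2.78 and 5.72 per 100 CPM of homeostatic markers in the KI shams and at 2.34, 2.29, 2.51 and 1.91 in KI 3 Class V. Tyrobp was at 7.03, 5.23, 7.82 and 5.03 in the shams and at 2.63, 2.63, 2.67 and 2.43 in the seizure libraries. On this relative scale, chosen after the data were seen and described with no test, Trem2, Tyrobp and Cst7 were still lower in each KI seizure library than in each sham. That is 3 of 9, where 1.14% of all genes were lower without overlap. The other 6 overlapped, and Apoe was at 620 to 1860 in the shams and 691 to 869 in the seizure libraries. In the KA model none of the 9 was higher without overlap on this scale (0.210% of all genes were), and Apoe was lower in each seizure library (516 to 697 against 735 to 1255), as were 27.0% of all genes.

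**Figure D4:**
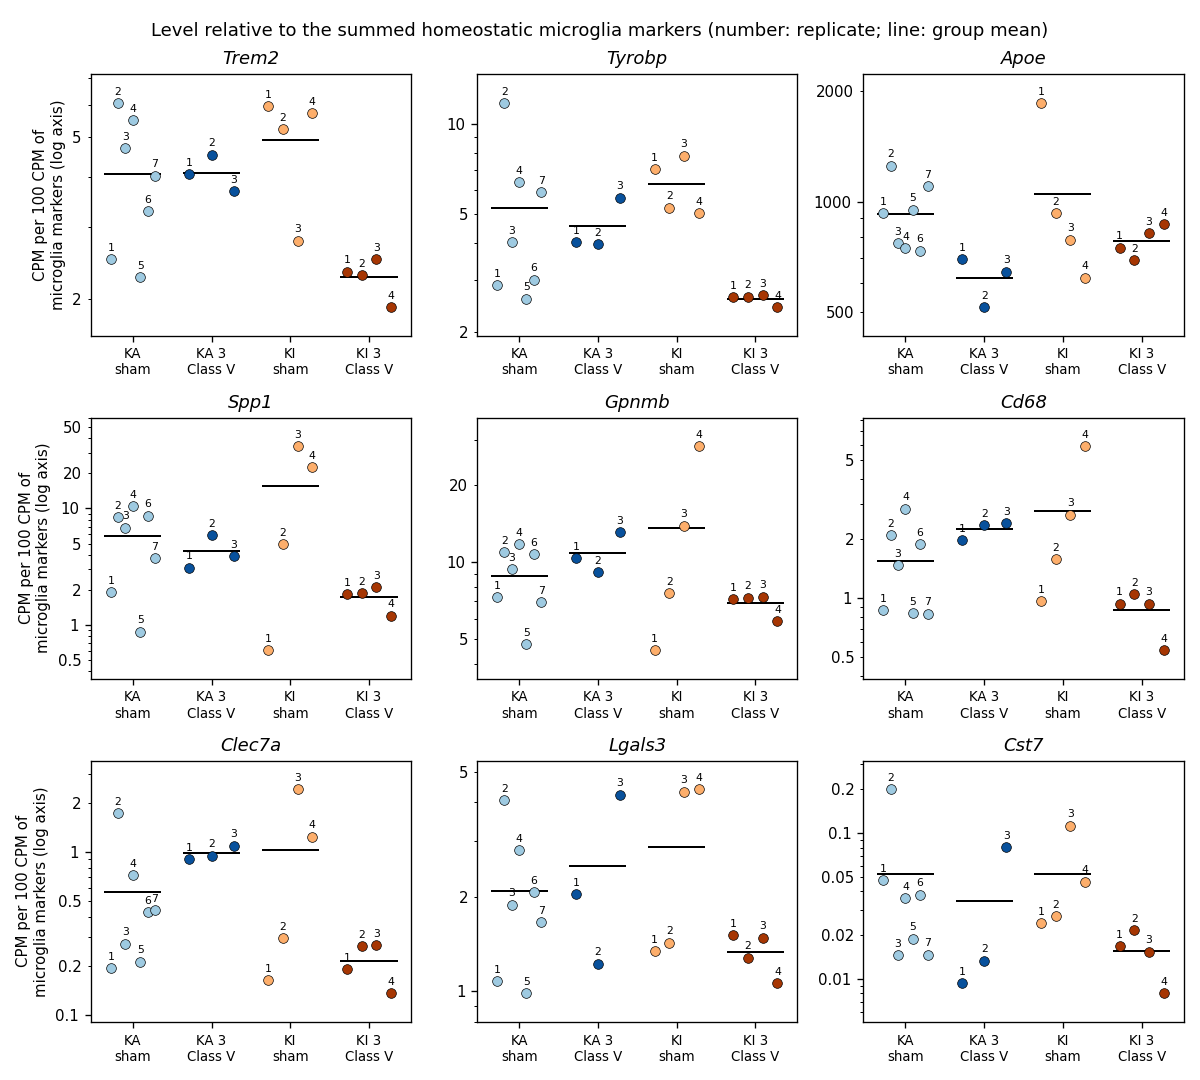
Level of each gene per 100 CPM of the 13 summed homeostatic microglia markers in each of the 18 libraries, on a log axis, with each point 1 library and each bar the group mean. Trem2 (1.91 to 2.51 against 2.78 to 5.97) and Tyrobp (2.43 to 2.67 against 5.03 to 7.82) remain lower in each KI 3 Class V library than in each KI sham, while the points of Gpnmb, Cd68 and Apoe overlap.

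Genes that carry or surround the Trem2 and Tyrobp signal were read next. Of 16 tested, 8 were called lower in KI 3 Class V (5.25% of all genes) and none higher (4.74% of all genes). Among the 16, 15 had a negative log2 difference, and the median was -1.04. Their summed level overlapped, since KI sham 1 (189 CPM) lay below the KI 3 Class V libraries (240.0 to 258 CPM). Spi1, the myeloid transcription factor PU.1, fell by 1.62 ± 0.33 on the log2 scale (edgeR adjusted p = 0.0221). Blnk, an adaptor downstream of Syk, fell by 1.41 ± 0.33 (edgeR adjusted p = 0.0284), and Ptpn6, the phosphatase SHP-1, fell by 1.5 ± 0.39 (edgeR adjusted p = 0.0333). In the KA model none of the 16 was called and each was on the higher side, with a median of 0.54. An unadjusted p under 0.05 was reached by 7 (9.93% of all genes). DESeq2 called 0 of them higher (1.3% of all genes) and limma-voom 4 (3.57% of all genes). The smallest KA p-values belonged to Plcg2, a phospholipase of this pathway (0.79 ± 0.27, edgeR adjusted p = 0.266), Syk (0.59 ± 0.24, edgeR adjusted p = 0.375) and Pik3cg (0.87 ± 0.36, edgeR adjusted p = 0.384). Of the 16, 8 were called as different between the models, each with the higher value in KA, against 3.15% of all genes. With KI sham 3 and 4 left out, 1 was called lower and 1 higher in KI, against 13.3% and 14.6% of all genes in that fit, and without KI sham 3 or any of KI 3 Class V 1 to 3 none was called.

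Among 20 further genes linked to the disease-associated microglia state, 6 were called lower in KI 3 Class V and none higher. The shares over all genes were 5.25% and 4.74%. Ctsz, a lysosomal cathepsin, fell by 1.81 ± 0.38 (edgeR adjusted p = 0.0225), and the tetraspanins Cd9 and Cd63 fell by 0.91 ± 0.24 (edgeR adjusted p = 0.0354) and 0.86 ± 0.25 (edgeR adjusted p = 0.0418) on the log2 scale. With KI sham 3 and 4 left out, 2 of the 20 were called, in a fit that called 28% of all genes. By edgeR none of the 20 was called in KA, where 9 had an unadjusted p under 0.05 (9.93% of all genes did). The KA log2 difference was positive for 15 and negative for 5, from -1.30 to 1.77. DESeq2 called 2 higher (1.3% of all genes) and limma-voom 6 (3.57% of all genes). In this comparison the nearest were Itgb2, an integrin chain of leukocytes (1.77 ± 0.38, edgeR adjusted p = 0.0659), Csf1 (0.75 ± 0.19, edgeR adjusted p = 0.109) and Mitf (0.42 ± 0.13, edgeR adjusted p = 0.206). Between the models 5 of the 20 were called as different, each with the higher value in KA, against 3.15% of all genes.

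Of the 13 homeostatic microglia markers, 3 were called lower in KI 3 Class V, against 5.25% of all genes. The other 10 were negative without passing. Aif1, the calcium-binding protein Iba1, fell by 1.64 ± 0.42 (edgeR adjusted p = 0.0333). Tmem119, a surface protein of microglia, fell by 0.70 ± 0.16 on the log2 scale (edgeR adjusted p = 0.0270). Values for the markers that did not pass were -0.57 ± 0.28 for the purinergic receptor P2ry12 (edgeR adjusted p = 0.155), -0.65 ± 0.37 for the chemokine receptor Cx3cr1 (edgeR adjusted p = 0.209), -0.85 ± 0.29 for the growth factor receptor Csf1r (edgeR adjusted p = 0.0619) and -1.11 ± 0.40 for the integrin Itgam (edgeR adjusted p = 0.0710). In KA the values of Itgam (1.61 ± 0.37, edgeR adjusted p = 0.0842), Selplg (0.73 ± 0.19, edgeR adjusted p = 0.119) and Csf1r (0.93 ± 0.27, edgeR adjusted p = 0.168) came nearest, and edgeR called none of the 13. An unadjusted p under 0.05 was reached by 7 (9.93% of all genes). DESeq2 called 2 of the 13 higher (1.3% of all genes) and limma-voom 5 (3.57% of all genes). The KA log2 difference was positive for 11 of the 13 and negative for 2.

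Markers of other cells were read in KI 3 Class V as well, where 5.25% of all tested genes were called lower and 4.74% higher. Border macrophages, which line vessels and meninges and also use Apoe and Tyrobp, had 1 of 9 markers called lower, Siglec1 (-3.19 ± 0.79, edgeR adjusted p = 0.0318). Siglec1 was at 16 and 14.4 CPM in KI sham 3 and 4 and at 0.657 and 1.66 CPM in KI sham 1 and 2. Mrc1 and Cd163, which define these cells, had log2 differences of -0.13 and 0.64. Ly6c, 1 of 8 monocyte and neutrophil markers, fell by 4.34 ± 1.23 (edgeR adjusted p = 0.0410), and Cd8a, 1 of 10 dendritic and T cell markers, fell by 5.34 ± 1.47 (edgeR adjusted p = 0.0381). Both had their highest level in KI sham 3. Ttr was at -4.54 ± 1.56 (edgeR adjusted p = 0.0625), and 1 of 9 choroid plexus markers was called lower. All 9 of these markers had a negative log2 difference, with a median of -3.22. Their sum was 23.2, 53.8, 19.1 and 1008 CPM in KI sham 1 to 4, with KI sham 4 far above the rest. It was 15.2 to 36.0 CPM in KI 3 Class V. Of 10 astrocyte markers the water channel Aqp4 alone was called (0.61 ± 0.19, edgeR adjusted p = 0.0486), in the higher direction, with Aldh1l1 at -0.24 ± 0.12 (edgeR adjusted p = 0.149). None of 6 blood cell genes was called or had an unadjusted p under 0.05, and 2 of 8 meningeal and fibroblast markers were called lower. Of 10 neuron markers, 2 were called higher. The summed neuron markers did not overlap in either model: 7524 to 8932 CPM in KI 3 Class V against 4738 to 6822 CPM in KI sham, and 5829 to 6108 CPM in KA 3 Class V against 6278 to 8416 CPM in KA sham. Besides the fits without KI sham 3 and 4, a fit left out the 2 libraries rich in choroid plexus markers. There 6 of the 9 genes were called lower in KI (Trem2, Tyrobp, Spp1, Cd68, Clec7a and Apoe), as were 16.4% of all genes. The part of these cells in the values of the 9 genes was not tested further.

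Across the 18 libraries the 9 genes varied together to different degrees. The 36 pairs had a Pearson r of log2 CPM from 0.387 (Gpnmb with Apoe) to 0.969 (Gpnmb with Cd68), with a median of 0.775. After each group's mean was taken off, Gpnmb and Cd68 still had r = 0.961, whereas Apoe with Spp1, Gpnmb or Cd68 lay between -0.12 and -0.01. Against Trem2, r was highest for Tyrobp (0.89), Cd68 (0.86) and Apoe (0.78), and lowest for Spp1 (0.71) and Cst7 (0.52). The libraries share their groups and their scaling, so these values describe the table and carry no test.

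Among 11204 tested genes outside the 9 that were abundant enough to rank, the closest to Trem2 over the 18 libraries were Tmem176b (r = 0.951, Spearman rho 0.866), Dpp7 (0.938), Dnase2 (0.932), Alox12 (0.930), Cd37 (0.929), Blnk (0.928), Ncf1 (0.925), Vsir (0.924), Npc2 (0.919) and Evi2b (0.917). Dnase2, Dpp7 and Npc2 encode lysosomal proteins, and Ncf1 and Cd37 are leukocyte genes.

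Promoter sequences from RefSeq (GRCr8, a later build than the rn6 of the counts) were at hand for 8 of the 10 listed genes. They were searched on both strands, from 250 bases before to 50 after the start of the gene, for 3 motifs, and no match overlapped another. The AP-1 type motif TGAGTCA was found in 3 of 8, Gpnmb, Cd68 and Itgax, and in 4.63% of 33469 promoters. GAGGAAGT, a PU.1 type motif, was found in 0 of 8 (2.42% of all), and CACGTGAC, an MiT/TFE type motif, in 0 of 8 (1.85% of all). The 250 bases before the start of Gpnmb (chr4:79340878-79341127, plus strand) and of Cd68 (chr10:54882442-54882691, minus strand) are printed because these genes had the highest correlation among the 36 pairs. Each runs 5′ to 3′ on the strand of its gene, with the matches in capitals.
Gpnmb: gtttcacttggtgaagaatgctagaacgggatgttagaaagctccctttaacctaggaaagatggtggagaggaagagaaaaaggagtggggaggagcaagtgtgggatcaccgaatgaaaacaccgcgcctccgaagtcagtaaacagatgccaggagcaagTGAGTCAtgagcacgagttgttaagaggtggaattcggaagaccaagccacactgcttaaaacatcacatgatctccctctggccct
Cd68: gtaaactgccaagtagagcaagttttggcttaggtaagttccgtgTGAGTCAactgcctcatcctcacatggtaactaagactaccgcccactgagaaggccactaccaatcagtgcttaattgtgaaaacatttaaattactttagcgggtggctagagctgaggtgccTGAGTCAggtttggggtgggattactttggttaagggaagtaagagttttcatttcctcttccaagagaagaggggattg
The match begins 87 bases before the start in Gpnmb, and 205 and 80 bases before it in Cd68. A match is a description of these letters and no measure of binding.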

How the data were processed

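Libraries of polyA RNA were prepared with the NEBNext Ultra II kit and sequenced single-end, per the labels' protocols. FastQC, Trimmomatic, HISAT2, featureCounts and DESeq2 and the build rn6 are named in the submitters' processing notes, without versions; on the annotation, the strand setting and multimapped reads, nothing is given in the sources used here. The authors deposited 1 table of raw counts per gene symbol, which was used as deposited. Every column of it matched 1 sample by title, and groups followed the labels.

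Counts were scaled with TMM factors and fitted over the 18 libraries with 1 mean per group (14 residual degrees of freedom) by the robust quasi-likelihood test of edgeR 4.0.16 in R 4.3.3, after filterByExpr left 13338 of 17455 genes. P-values were adjusted by Benjamini-Hochberg over these genes, and a gene was called at an adjusted p under 0.05. CPM uses the TMM-scaled totals, and log2 CPM a prior count of 2. The counting noise of each level follows from its count and the library total of 30925368 to 49943021, and leaves out the spread between libraries.

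The edgeR fit was tested on simulated counts, with each gene drawn independently from its fitted spread. Libraries that stand apart as a whole were not simulated, and the outcome is not reported here. No pair of libraries in a group agreed within sampling noise (chi-square per degree of freedom 18.0 to 532 over 36 pairs). Alternatives were DESeq2 1.42.0, limma-voom 3.58.1 with quality weights, RLE factors, other filters, each library left out, KI sham 3 and 4 left out together, a covariate from 88 ribosomal protein genes, the replicate number as a block, and each model's groups alone. Leaving out the libraries rich in ribosomal RNA or in choroid plexus markers, and the scale per homeostatic marker sum, were chosen after the data were seen. The members, the 12 gene lists and the comparisons were chosen with earlier results of these data known. Named besides the members are, from each list that is described, up to 3 genes with the smallest p in KI and in KA and the defining cell type markers, and for likeness the 10 genes with the highest r to Trem2 among those with a mean log2 CPM of at least 1. Siglec1, Ly6c and Cd8a are given by library after their values were seen. The values of 1 homeostatic marker called in KI are not reported here.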

Additional observations from a re-analysis of the deposited data

Results flagged for a closer look

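The change in KA differed from the change in KI for 6 genes by the test of the difference itself: 2.40 for Trem2, 2.39 for Tyrobp, 2.73 for Gpnmb, 3.63 for Cd68, 4.56 for Clec7a and 1.06 for Apoe, on the log2 scale. Each of these is the KA value minus the KI value, where no KA change passed the test alone.

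Among 27 sets of 4 or more libraries checked, 2 held a library far from the others, and chance flags about 1 in 20 such sets. Cd68 was at 31.7 CPM in KA sham 4, and the gap to the next sham was 0.597 of the range of the KA shams. Cst7 was at 1.499 CPM in KA sham 2, with a gap of 0.776 of the range.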

How the results depend on the processing

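In KI, 8 of the 9 genes were called over all libraries, and 3 without KI sham 3 and 4, 3 with the 2 KI groups alone, 1 with the ribosomal protein covariate and 0 without the 3 libraries rich in ribosomal RNA. DESeq2 and limma-voom called 9, where they called 10.1% and 28% of all genes lower. With single libraries left out, the count ran from 0 to 9, and the share of all genes called lower from 0.06% to 17.6%. For the difference between the models, 6 were called over all libraries and 6 with the ribosomal protein covariate. Of all genes, 3.15% and 4.7% were called with the higher value in KA in these fits. The count was 4 without the 3 libraries rich in ribosomal RNA (2.62% of all genes in that direction). It was 2 without KI sham 3 and 4 (1.89%), and 2 without the libraries rich in choroid plexus markers (1.8%). The count was 0 to 8 with single libraries left out (0.387% to 5.31% of all genes). In KA, limma-voom called 2. The replicate block called 0 in KI and 0 for the difference; the 7 same-numbered sham pairs had deviations with r from -0.166 to 0.00907, and 0 shams correlated best with their own number, so the numbers were not read as pairing. In each case the cause was not tested.

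Over all genes, the KI calls numbered 1332 with edgeR, 2915 with DESeq2, 7359 with limma-voom, 105 with the covariate, 3740 without KI sham 3 and 4, 4297 without KI sham 4, 133 without KI sham 3, 17 without the libraries rich in ribosomal RNA and 0 with the replicate block. The KA calls numbered 23 with edgeR, 248 with DESeq2, 725 with limma-voom, 205 with the covariate and 3 with the replicate block, and those of the difference 507, 1113, 4778, 1025 and 11. Between the shams, 1 gene was called with edgeR, 10 with DESeq2, 411 with limma-voom and 625 without KI sham 3 and 4.

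Signs turned for small values. The KA difference of Spp1 ran from -0.34 to 0.49 with single libraries left out, and was negative without KA sham 1, 5 or 7 or KA 3 Class V 2. That of Cst7 ran from -1.41 to 0.90, and was -0.12 without the libraries rich in choroid plexus markers and -0.63 with the replicate block. Between the shams Cst7 ran from -1.36 to 0.31, and was 0.24 with the replicate block. Without KI sham 3 and 4, the sham differences were 0.96 for Spp1, 0.51 for Gpnmb, 0.31 for Cd68, 1.24 for Clec7a, 0.93 for Cst7 and 0.64 for Lgals3. Cst7 gave no value with the filter of at least 1 CPM in 3 libraries or with the 2 KI groups alone. Depth limits Cst7, which had as few as 2 counts in a library.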
